A study of Mus musculus with 36 samples.

Results

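miR-31 was followed in whole kidneys of newborn mice through both strands that its hairpin yields, mmu-miR-31-5p and mmu-miR-31-3p (mmu for mouse, left out from here on). These were the 2 rows of the miRNA count table that carry these names, out of 1915 mature miRNAs listed, of which 1590 had at least 1 read in any library. The 36 libraries came from C57BL/6 kidneys taken at postnatal day 1, 3 or 7 (P1, P3 or P7), with 3 libraries in each of 12 groups. In the Pkd1 model the controls were Pkd1f/f (WT) and the deleted kidneys were Pkd1f/f:HoxB7-Cre (KO), and in the Pkd2 model they were Pkd2f/f (WT) and Pkd2f/f:HoxB7-Cre (KO), so every control also carried the floxed alleles and lacked only Cre. The HoxB7 promoter is active in the ureteric bud and the collecting ducts that grow from it, whereas the RNA was extracted from whole kidney, so that deleted and undeleted cells were measured together. The labels give neither sex nor batch, and the Pkd1 and Pkd2 messages were not part of these small RNA libraries, so the deletions themselves were not checked here. Nothing in the labels says which libraries came from separate animals or litters, so p-values measure only the spread between these libraries. miR-31 was chosen by a measured value, the amount by which the KO effect on miR-31-5p in Pkd2 kidneys of P7 exceeded the effect in those of P1. For that reason the Pkd2 values at P1 and P7 are given below as a description without a test, and tests were kept for the Pkd1 libraries and for the Pkd2 kidneys at P3.

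A miRNA gene is transcribed into a long precursor, from which a hairpin is cut out and then trimmed to a duplex of its 5p and 3p arms. One arm is usually loaded into an Argonaute protein and guides it to messages that pair with its seed, bases 2 to 8, while the other arm is mostly discarded. miR-31 is known from skin, gut and other epithelia, where it accompanies injury, inflammation and squamous tumours. Pkd1 and Pkd2 encode polycystin-1, a large receptor-like membrane protein, and polycystin-2, a cation channel, and loss of either from tubule cells leads to kidney cysts.

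The mature sequences are shown because reads were counted for each arm on its own, with the seed of each arm in capitals (RefSeq, GRCm38.p6).
miR-31-5p: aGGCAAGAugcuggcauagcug
miR-31-3p: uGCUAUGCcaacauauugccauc
The hairpin shows where the arms lie, with both arms in capitals.
Mir31 hairpin: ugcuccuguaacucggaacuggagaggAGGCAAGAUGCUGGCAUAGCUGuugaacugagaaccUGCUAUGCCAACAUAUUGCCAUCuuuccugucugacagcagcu
The hairpin of 106 bases lies on the minus strand at chr4:88910557-88910662 (GRCm38), with miR-31-5p of 22 bases at chr4:88910614-88910635 and miR-31-3p of 23 bases at chr4:88910577-88910599. A predicted fold (RNAfold) placed 17 base pairs between the arms, which are separated by 14 bases of loop. GENCODE M21 places Mir31 inside an exon of the lincRNA AL805899.1, at chr4:88909855-88910710 on the same strand. The nearest protein-coding gene was Ifne, an epithelial type I interferon, 30.4 kb away, followed by genes of the interferon alpha family. The nearest other miRNA hairpin, Mir491, was 788.4 kb away, so miR-31 has no clustered partner. Among the 1679 mature sequences of the RefSeq table, which matched 1623 of the 1915 names counted here, no other miRNA shared the seed of miR-31-5p or that of miR-31-3p. The other 292 names had no sequence to compare.

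The libraries held between 12569939 and 32663566 reads assigned to mature miRNAs (median 24008082). miR-10a-5p and miR-10b-5p, which are abundant in kidney, took between 31.4% and 81.0% of them, and the factors by which TMM (trimmed mean of M values) rescales the libraries ranged from 0.395 to 2.41. Levels are therefore given in counts-per-million (CPM) scaled by TMM over all 36 libraries, and fold changes come from a fit within each model. Beside the tissue label, 4 miRNAs of kidney tubules (miR-192-5p, miR-194-5p, miR-204-5p and miR-30a-5p) were looked at, and all were present in every group. Their summed level was at least 23064 CPM. Most of that lowest sum, 19039 CPM in Pkd2 KO replicate 3 at P1, was miR-30a-5p, so the sum says little about the other members.

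miR-31-5p was a moderately abundant miRNA of these kidneys and miR-31-3p a scarce one. miR-31-5p had between 188 and 7737 reads per library (median 1545) and ranked from place 104 to place 238 among all miRNAs. miR-31-3p had between 25 and 702 reads (median 154.5) and ranked from place 244 to place 486. The 5p arm was thus the more frequent arm in 36 of 36 libraries, by a factor between 4.62 and 20.6 (median 8.93). The limit that a count of 0 allows, 3 reads, corresponded to between 0.0918 and 0.239 CPM without rescaling, so both arms were well above this floor in every library. Such floors, and the intervals given below for shares of reads, cover counting error only.

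In Pkd2 kidneys miR-31-5p stood apart in one group, the KO kidneys at P7. There it reached 177, 105 and 273 CPM in replicates 1, 2 and 3, against 43.3, 33.2 and 35.1 CPM in the WT kidneys of that age. The lowest KO library was above the highest WT library. A separation of this kind, every KO library above every WT library, was found in 14.3% of the 746 miRNAs tested in this comparison. The fitted KO level was 5.17-fold the WT level (2.37 on the log2 scale), place 16 from the top among the 746, and 12.6% of them passed an adjusted p of 0.05 in this comparison (edgeR, Benjamini-Hochberg). Of the 3 KO libraries, replicate 2 was the lowest and replicate 3 the highest. Without rescaling by TMM miR-31-5p was at 235, 51.2 and 289 CPM in the KO libraries and at 30.0, 31.2 and 38.0 in the WT libraries. Replicate 2 lay closer to WT on that scale, still without overlap, and miR-10a-5p and miR-10b-5p made up 74.1% of its reads.

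The passenger arm went the same way at P7. miR-31-3p measured 20.1, 12.7 and 22.5 CPM in the Pkd2 KO kidneys and 6.68, 3.67 and 3.85 CPM in the WT kidneys, again without overlap. The fitted KO level was 4.08-fold that of WT (2.03 on the log2 scale), place 23 among the 746. Replicate 2 was the lowest KO library for this arm too.

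**Figure D1:**
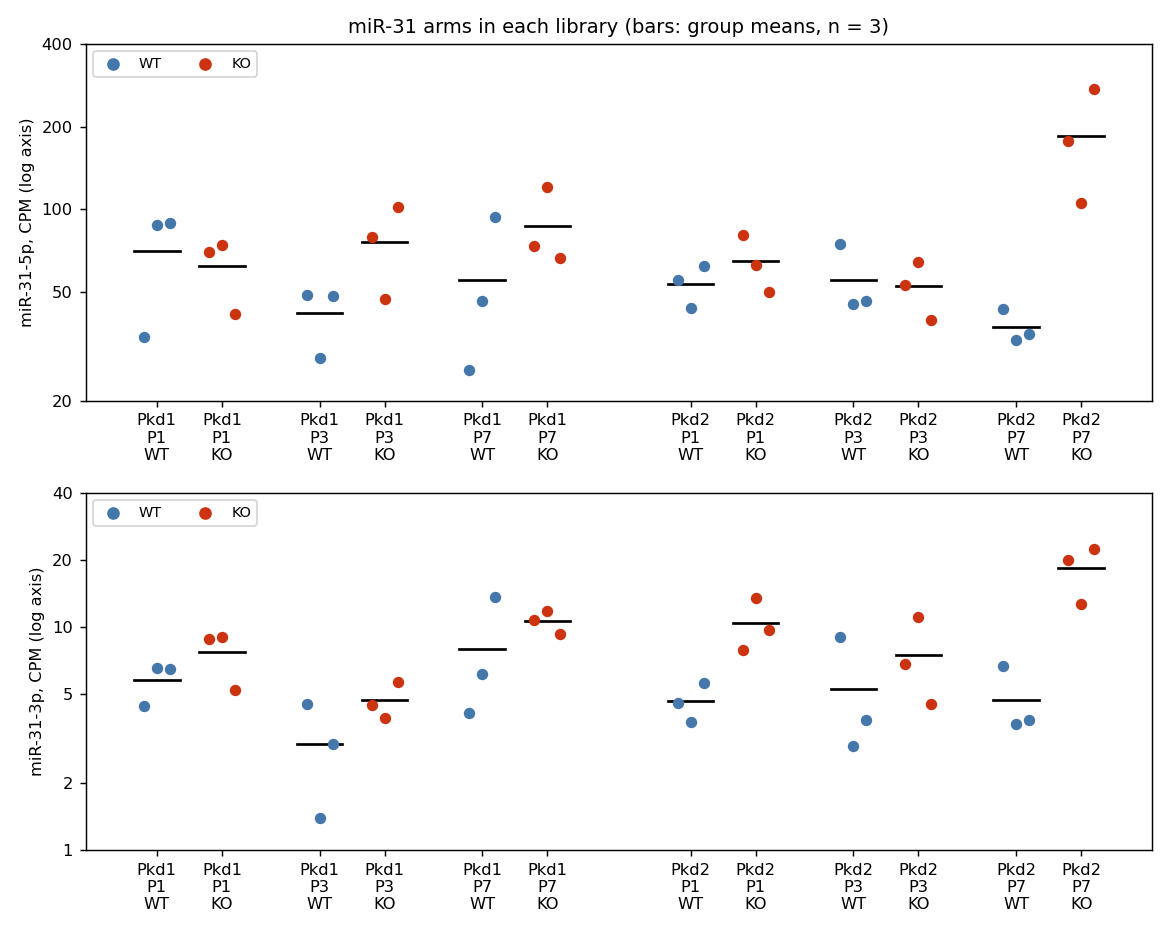
Level of miR-31-5p (upper panel) and miR-31-3p (lower panel) in each of the 36 libraries, in CPM on a log axis, with WT in blue, KO in red and a bar at each group mean (n = 3). The Pkd2 KO libraries at P7, at 105 to 273 CPM of miR-31-5p and 12.7 to 22.5 CPM of miR-31-3p, lie above the Pkd2 WT libraries of the same age, while in the Pkd1 model the WT and KO libraries overlap at every age for both arms.

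At P1 the arms did not behave alike in the Pkd2 model. miR-31-5p measured 80.5, 62.7 and 49.9 CPM in KO kidneys and 55.0, 43.5 and 62.0 CPM in WT kidneys, which overlapped (fitted log2 difference 0.31). miR-31-3p measured 7.91, 13.6 and 9.77 CPM in KO kidneys and 4.59, 3.75 and 5.63 CPM in WT kidneys, which did not overlap (fitted log2 difference 1.20, or 2.30-fold). In this comparison every KO library lay above every WT library for 6.70% of the 746 miRNAs. None of the 746 passed an adjusted p of 0.05 (0%), while 41 had an unadjusted p under 0.05, and DESeq2 called 0. The P7 effect exceeded the P1 effect, the value that led to the choice of miR-31, by 2.06 on the log2 scale for miR-31-5p and by 0.83 for miR-31-3p, and 0.536% of the 746 miRNAs passed the threshold in that contrast.

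At P3, an age that played no part in the choice, neither arm differed in the Pkd2 model beyond the spread between libraries. miR-31-5p measured 53.0, 64.3 and 39.2 CPM in KO kidneys and 74.4, 44.9 and 46.1 CPM in WT kidneys. The groups overlapped, and the log2 difference was -0.11 (SE 0.31, 95% interval -0.76 to 0.54, adjusted p = 1.00). miR-31-3p measured 6.85, 11.2 and 4.51 CPM in KO kidneys and 9.06, 2.94 and 3.85 CPM in WT kidneys, with a log2 difference of 0.49 (SE 0.41, 95% interval -0.37 to 1.36, adjusted p = 1.00). WT replicate 1 was the highest WT library for both arms, and without it the log2 difference was 0.17 for miR-31-5p and 1.11 for miR-31-3p. Leaving out KO replicate 2, the highest KO library for both arms, gave 0.14 for miR-31-3p. Every KO library lay above every WT library for 2.55% of the 746 miRNAs at P3. No miRNA of the 746 passed the threshold at that age (0%), 11 had an unadjusted p under 0.05, and DESeq2 called 0.

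In Pkd2 WT kidneys miR-31-5p was lowest at P7, while the means of miR-31-3p lay close together. The mean of miR-31-5p was 53.5 ± 9.33 CPM at P1, 55.2 ± 16.7 CPM at P3 and 37.2 ± 5.35 CPM at P7 (SD, n = 3). For miR-31-3p the means were 4.66 ± 0.944, 5.28 ± 3.30 and 4.73 ± 1.69 CPM (SD, n = 3). The fitted log2 difference between P7 and P1 was -0.59 for miR-31-5p and -0.05 for miR-31-3p. Between these ages 28.3% of the 746 miRNAs passed the threshold, against 0.268% between P3 and P1 and 4.16% between P7 and P3.

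The Pkd1 kidneys were not used in choosing miR-31, and in them the KO effect could be tested at each age. Neither arm passed the threshold at P1, P3 or P7, and WT and KO libraries overlapped for both arms at every age. Every KO library lay above every WT library for 11.6% of the 706 miRNAs tested at P1, 6.66% at P3 and 8.36% at P7. At P1, miR-31-5p measured 70.0, 73.8 and 41.5 CPM in KO kidneys and 34.1, 87.5 and 88.8 CPM in WT kidneys. Replicate 3 was the low KO library and replicate 1 the low WT library. The log2 difference was -0.13 (SE 0.45, 95% interval -1.09 to 0.83, adjusted p = 0.890). For miR-31-3p the KO kidneys measured 8.83, 9.08 and 5.21 CPM and the WT kidneys 4.41, 6.54 and 6.52 CPM, a log2 difference of 0.47 (SE 0.42, 95% interval -0.42 to 1.36, adjusted p = 0.676). In this comparison 0% of the 706 miRNAs passed the threshold, 59 had an unadjusted p under 0.05, and DESeq2 called 9. The sign of the miR-31-5p difference at P1 is not fixed by these libraries: it was above 0 without WT replicate 2 (0.038), WT replicate 3 (0.11) or KO replicate 3 (0.10), and with scaling by library totals alone (0.39).

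At P3, miR-31-5p measured 78.9, 46.9 and 102 CPM in Pkd1 KO kidneys and 48.6, 28.7 and 48.1 CPM in WT kidneys. KO replicate 2 lay among the WT libraries, and the other two lay above them. The log2 difference was 0.89 (SE 0.45, 95% interval -0.08 to 1.86, adjusted p = 0.616). miR-31-3p measured 4.49, 3.92 and 5.70 CPM in KO kidneys and 4.54, 1.39 and 3.01 CPM in WT kidneys, where replicate 2 held the lowest level of this arm among all 36 libraries. Its log2 difference was 0.68 (SE 0.42, 95% interval -0.21 to 1.57, adjusted p = 0.681). Again 0% of the 706 miRNAs passed, 64 had an unadjusted p under 0.05, and DESeq2 called 9.

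At P7, the age at which the Pkd2 KO kidneys stood apart, miR-31-5p measured 73.4, 121 and 66.0 CPM in Pkd1 KO kidneys and 25.8, 46.3 and 93.6 CPM in WT kidneys. WT replicate 3 lay above 2 of the 3 KO libraries. The log2 difference was 0.72 (SE 0.46, 95% interval -0.25 to 1.69, adjusted p = 0.667). miR-31-3p measured 10.8, 11.8 and 9.31 CPM in KO kidneys and 4.12, 6.20 and 13.6 CPM in WT kidneys. WT replicate 3 was the highest of these 6 libraries, and the log2 difference was 0.48 (SE 0.42, 95% interval -0.41 to 1.38, adjusted p = 0.786). In this comparison 0.425% of the 706 miRNAs passed. Without WT replicate 3 the log2 difference was 1.24 for miR-31-5p and 1.03 for miR-31-3p, and neither passed.

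Averaged over the 3 ages, which uses all 9 KO and 9 WT libraries of the Pkd1 model, the log2 difference was 0.49 for miR-31-5p (SE 0.26, 95% interval -0.06 to 1.05, unadjusted p = 0.0785, adjusted p = 0.829 by edgeR). For miR-31-3p it was 0.54 (SE 0.24, 95% interval 0.028 to 1.06, unadjusted p = 0.0399, adjusted p = 0.829 by edgeR). In this contrast 38 of the 706 miRNAs had an unadjusted p under 0.05 by edgeR, and 0.425% passed the threshold. The fitted difference was above 0 at each of the 3 ages for miR-31-3p and at 2 of them for miR-31-5p. The contrast that singled out miR-31 in the Pkd2 model, the P7 effect less the P1 effect, was 0.85 for miR-31-5p in the Pkd1 model (SE 0.64, 95% interval -0.52 to 2.21, adjusted p = 0.569), where 0.142% of the 706 miRNAs passed. That value was 1.45 without WT replicate 3 of P7, 0.53 without WT replicate 1 of P7 and 0.10 with scaling by library totals. For miR-31-3p it was 0.016 (SE 0.60, 95% interval -1.25 to 1.29, adjusted p = 0.991). Whether the KO effect at P7 differed between the models was not tested, because the Pkd2 value had served to choose miR-31.

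**Figure D2:**
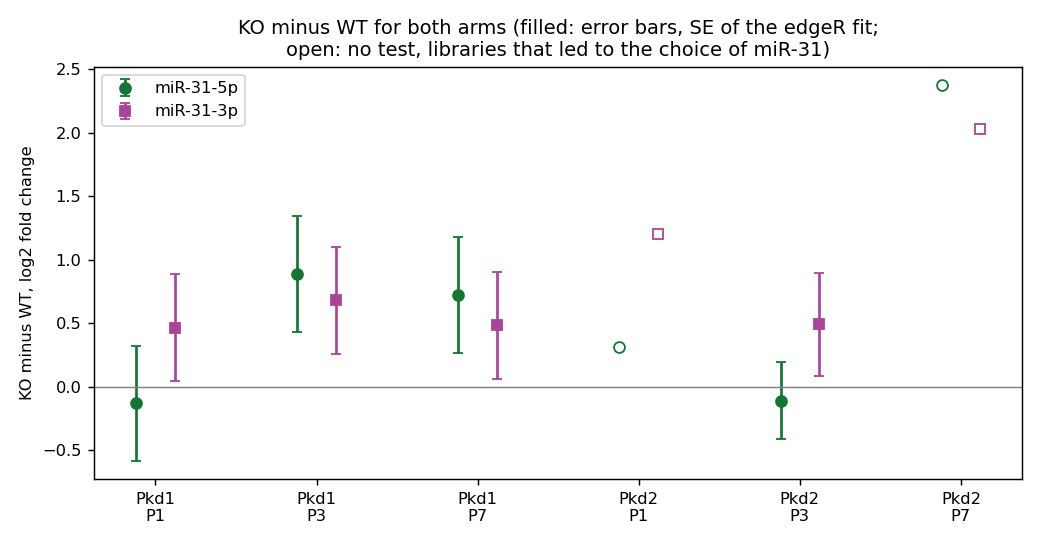
Fitted KO minus WT difference of miR-31-5p (circles) and miR-31-3p (squares) on the log2 scale, by model and age, with the SE of the edgeR fit for the tested comparisons and open symbols without error for the Pkd2 comparisons that led to the choice of miR-31. miR-31-3p lies above 0 in 6 of 6 comparisons and miR-31-5p in 4 of 6, and the values of the Pkd2 kidneys at P7 are the highest for both arms.

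In Pkd1 WT kidneys, which show maturation without deletion, miR-31-3p was lower at P3 than at P7. Its mean was 5.83 ± 1.22 CPM at P1, 2.98 ± 1.58 CPM at P3 and 7.98 ± 4.99 CPM at P7 (SD, n = 3). The log2 difference between P7 and P3 was 1.43 (SE 0.43, 95% interval 0.53 to 2.34, adjusted p = 0.0383), in a comparison where 14.4% of the 706 miRNAs passed. One P3 library (4.54 CPM) lay above the lowest P7 library (4.12 CPM), so the groups overlapped. The call was lost without P7 replicate 3 (0.84, adjusted p = 0.239), without P3 replicate 2 (1.10, adjusted p = 0.120) or without P3 replicate 3 (1.45, adjusted p = 0.0871), and with scaling by library totals (0.34, adjusted p = 0.669), a scaling that moved the median miRNA of this comparison by -1.26. miR-31-5p had means of 70.1 ± 31.2, 41.8 ± 11.4 and 55.3 ± 34.8 CPM at P1, P3 and P7 (SD, n = 3). Its log2 difference between P7 and P3 was 0.41 (SE 0.45, adjusted p = 0.627), and without P7 replicate 3 it was -0.15. Neither arm passed between P3 and P1 (-0.69 for miR-31-5p, adjusted p = 0.320, and -0.89 for miR-31-3p, adjusted p = 0.160), where 18.8% of the miRNAs did. Between P7 and P1, where 21.5% passed, the log2 differences were -0.28 for miR-31-5p (adjusted p = 0.691) and 0.54 for miR-31-3p (adjusted p = 0.383).

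Placed in order of the group means, the Pkd2 KO kidneys at P7 came first for miR-31-5p (185 ± 84.4 CPM), followed by the Pkd1 KO kidneys at P7 (86.7 ± 29.6 CPM) and at P3 (75.9 ± 27.7 CPM). The Pkd2 WT kidneys at P7 came last (37.2 ± 5.35 CPM). For each pair of neighbours in this order the libraries overlapped, including the first pair, since the lowest Pkd2 KO library at P7 (105 CPM) was below the highest Pkd1 KO library (121 CPM). For miR-31-3p the order also began with the Pkd2 KO kidneys at P7 (18.5 ± 5.10 CPM) and the Pkd1 KO kidneys at P7 (10.6 ± 1.25 CPM), and these were the only neighbours that did not overlap. How often other miRNAs separate between these groups was not computed, and line and any batch cannot be told apart. Pkd1 WT replicate 3 at P7 (13.6 CPM) lay above the lowest Pkd2 KO library at P7 (12.7 CPM). The order ended with the Pkd1 WT kidneys at P3 (2.98 ± 1.58 CPM).

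The share of miR-31 reads that came from the 3p arm does not depend on how libraries are scaled, and it varied between 4.62% and 17.8% (median 10.1%). The 95% Wilson intervals of single libraries spanned 1.14 to 9.15 percentage points, the widest where the fewest miR-31 reads were counted. In the Pkd1 model the KO share was 11.1 ± 0.134% at P1, 6.13 ± 1.38% at P3 and 11.4 ± 2.13% at P7 (SD, n = 3). In WT kidneys it was 8.42 ± 2.63%, 6.35 ± 2.01% and 12.7 ± 0.982% (SD, n = 3). The log2 ratio of 3p to 5p reads was 0.083 higher in KO than in WT kidneys over the 3 ages (exact permutation test within age, two-sided, n = 9 and 9, p = 0.618, adjusted over 3 such tests p = 0.807). Between P7 and P1 it differed by 0.36 (exact permutation test within genotype, two-sided, n = 6 and 6, p = 0.135, adjusted p = 0.405). Leaving out KO replicate 2 of P7, the P7 library with the lowest share, raised that difference to 0.46 with an exact p = 0.005, the smallest these arrangements can give. WT kidneys of the Pkd2 line differed from those of the Pkd1 line by 0.042 (exact permutation test within age, two-sided, n = 9 and 9, p = 0.807, adjusted p = 0.807), and line and any batch cannot be told apart. The P3 libraries of the Pkd1 model, at 4.62% to 8.56%, all had a lower 3p share than its P7 libraries, at 8.90% to 13.8%. This was noticed after the values were seen and has no test.

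In the Pkd2 model the mean 3p share was higher in KO than in WT kidneys at P1 and P3 and not at P7. At P1 the KO libraries held 8.95%, 17.8% and 16.4% and the WT libraries 7.71%, 7.93% and 8.33%. These did not overlap, although KO replicate 1 was close to the WT range, and the log2 ratio of 3p to 5p differed by 0.89. How often the arm ratios of other miRNAs separate in this way was not computed. At P3 the share was 11.4%, 14.8% and 10.3% in KO kidneys and 10.9%, 6.15% and 7.70% in WT kidneys. The groups overlapped, with a log2 difference of 0.65. At P7 it was 10.2%, 10.8% and 7.62% in KO kidneys and 13.4%, 9.95% and 9.87% in WT kidneys, a log2 difference of -0.24. The library with the highest miR-31-5p of all, KO replicate 3 at P7, thus had the lowest 3p share among the Pkd2 libraries of that age. The miR-31-5p values of P1 and P7 that led to the choice of miR-31 enter these ratios, so the Pkd2 shares are given without a test.

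**Figure D3:**
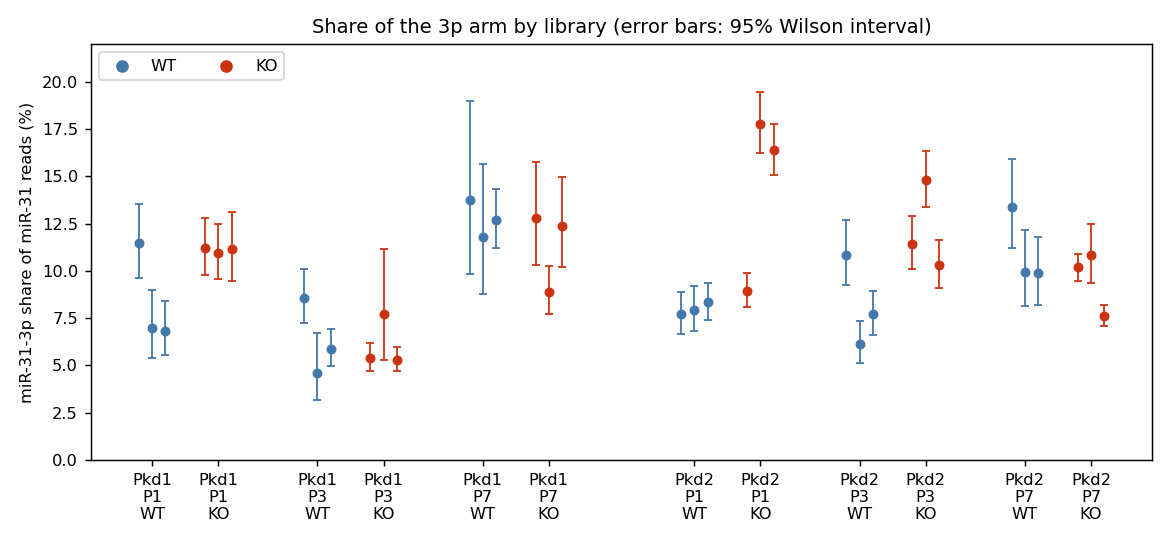
Share of miR-31 reads that came from the 3p arm in each library, in percent, with 95% Wilson intervals for counting error, WT in blue and KO in red. The Pkd1 libraries at P3 lie between 4.62% and 8.56%, and the highest shares, 17.8% and 16.4%, belong to Pkd2 KO kidneys at P1.

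The miRNAs whose levels followed miR-31 most closely were sought among 650 others with a mean of at least 10 reads, by Pearson's r of log2 CPM over the 36 libraries. The points share libraries, depth and scaling, and the 3 Pkd2 KO libraries at P7 weigh heavily, so r is given as a description. For miR-31-5p the highest values were those of its own other arm, miR-31-3p (r = 0.79), of miR-200c-3p, an epithelial miRNA that represses the Zeb factors (0.75), of miR-3059-5p (0.73), of miR-34a-5p, a target of p53 (0.67), and of miR-183-5p, a sensory and epithelial miRNA (0.65). Without the 2 libraries farthest from the median of miR-31-5p, Pkd2 KO replicates 1 and 3 at P7, these became 0.71, 0.65, 0.63, 0.41 and 0.70, so that the likeness of miR-34a-5p rested most on those libraries. Spearman's rho over the 36 libraries was 0.76 for miR-31-3p, 0.65 for miR-200c-3p, 0.71 for miR-3059-5p, 0.45 for miR-34a-5p and 0.76 for miR-183-5p. In the 18 Pkd1 libraries alone r was 0.72, 0.69, 0.56, 0.52 and 0.65.

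For miR-31-3p the order was miR-200c-3p (0.85), miR-31-5p (0.79), miR-34a-5p (0.71), miR-183-5p (0.68) and miR-29b-3p (0.66). Without its 2 farthest libraries, WT replicate 2 of Pkd1 at P3 and KO replicate 3 of Pkd2 at P7, these were 0.80, 0.73, 0.63, 0.70 and 0.61. In the Pkd1 libraries alone miR-200c-3p had an r of 0.90 with miR-31-3p. The lowest values were those of miR-708-3p (-0.65) and miR-363-3p (-0.61) for miR-31-5p, and of miR-363-3p (-0.72) and miR-1948-3p (-0.60) for miR-31-3p. With scaling by library totals each of these 4 turned positive, to 0.44, 0.49, 0.33 and 0.19, so their direction depends on the scaling.

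When each library was taken as its deviation from its group mean, so that age, model and genotype no longer contributed, the miRNAs closest to miR-31-5p were miR-3059-5p (0.85), miR-34a-5p (0.82), miR-205-5p (0.81), miR-31-3p (0.79) and miR-141-3p, a cluster partner of miR-200c (0.78). For miR-31-3p they were miR-3059-5p (0.87), miR-31-5p (0.79), miR-205-5p (0.78), miR-200c-3p (0.72) and miR-205-3p (0.71). miR-205, a miRNA of stratified epithelium and of the lower urinary tract, was thus close to both arms among libraries of one group. Over all 36 libraries r of miR-205-5p was only 0.51 with miR-31-5p and 0.38 with miR-31-3p. Without the 2 farthest libraries of each arm these were 0.30 and 0.21, and in the 18 Pkd1 libraries alone 0.21 and -0.05. The r of deviations was not recomputed without single libraries. miR-3059-5p was scarce, with a mean of 31.7 reads and a level of 0.111 CPM in its lowest library, Pkd1 WT replicate 2 at P3.

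**Figure D4:**
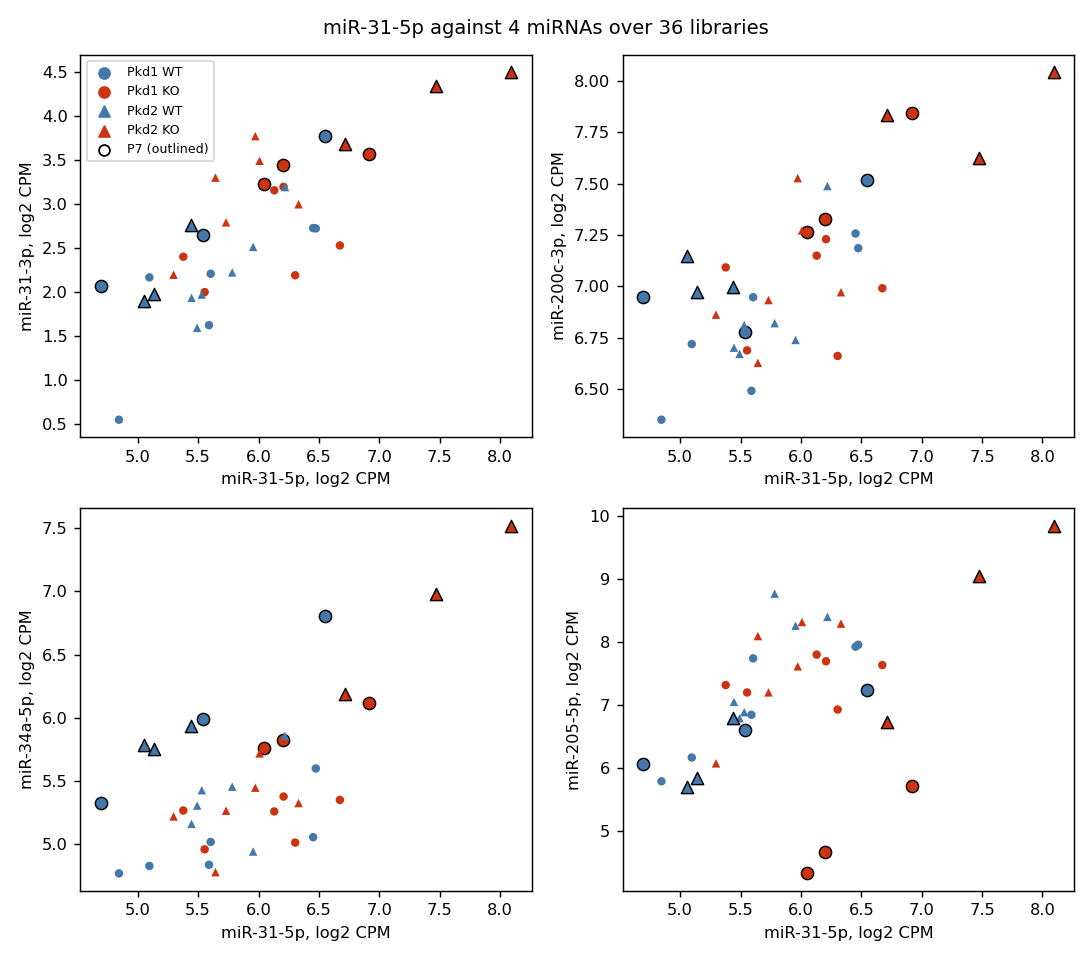
Level of miR-31-5p in each of the 36 libraries (horizontal axis, log2 CPM) against miR-31-3p, miR-200c-3p, miR-34a-5p and miR-205-5p (vertical axes, log2 CPM), with circles for Pkd1, triangles for Pkd2, blue for WT, red for KO and outlined symbols for P7. Pkd2 KO replicates 1 and 3 at P7 lie farthest to the right, at 177 and 273 CPM of miR-31-5p, and the lowest levels of miR-205-5p are those of Pkd1 KO replicates 3 and 1 at P7, at 20.0 and 25.4 CPM.

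The Pkd2 KO kidneys at P7 illustrate this within-group likeness. miR-205-5p measured 530, 106 and 920 CPM in KO replicates 1, 2 and 3, the same order as miR-31-5p, and 111, 51.9 and 57.3 CPM in the WT libraries. miR-34a-5p measured 126, 72.8 and 183 CPM in the KO libraries and 61.0, 55.1 and 53.9 CPM in the WT libraries. In the Pkd1 KO kidneys of that age miR-205-5p measured 25.4, 52.5 and 20.0 CPM, against 66.9, 97.3 and 151 CPM in WT kidneys (log2 difference -1.64, SE 0.51, adjusted p = 0.160 by edgeR), while the mean of miR-31-5p was 86.7 CPM in those KO libraries and 55.3 CPM in their controls. At P7 in the Pkd2 model the fitted levels of miR-31-5p and miR-205-5p were thus both higher in KO than in WT kidneys. For miR-205-5p the groups overlapped, since KO replicate 2 (106 CPM) lay below WT replicate 1 (111 CPM). In the Pkd1 model the differences of miR-31-5p and miR-205-5p had opposite signs, and neither passed the threshold.

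A list of 15 miRNAs linked to injured or stratified epithelium, all of which were tested, was set beside miR-31. The list was chosen with earlier results of these data known, and the Pkd2 libraries of P7 also led to the choice of miR-31. Its counts are therefore a description. In the Pkd2 model at P7, 5 of the 15 were called higher and 0 lower, where 12.6% of all 746 miRNAs were called in either direction. The median log2 difference of the 15 was 0.70, against 0.02 over all 746 miRNAs. The 5 were miR-205-5p (2.87), miR-205-3p (3.07), miR-34a-5p (1.23), miR-21a-5p, which is raised in many fibrotic and injured tissues (1.11), and miR-222-3p (0.73). miR-205-5p and miR-205-3p are arms of the same hairpin. The count rested on single libraries, being 0 without KO replicate 3, without WT replicate 2 or without WT replicate 3, and 2 with scaling by library totals. With only the compared libraries it was 3. miR-21a-5p did not follow the order of miR-31-5p among the KO libraries, with 8629, 18788 and 11263 CPM. In the Pkd1 model at P7, 1 of the 15 was called higher, miR-21a-5p (1.45, SE 0.17, adjusted p = 1.7e-04 by edgeR), and 0 lower, with a median of 0.24 against 0.01 over all 706 miRNAs, of which 0.425% were called. The count was 3 without WT replicate 3 and 0 with scaling by library totals. At P1 and P3, 0 of the 15 were called in either model, as were 0% of all miRNAs.

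Of 8 miRNAs of collecting duct and other epithelium, 4 were called higher in the Pkd2 model at P7, namely miR-200c-3p (0.87), miR-141-3p (0.82), miR-183-5p (1.04) and miR-182-5p (1.38), and 0 lower, where 12.6% of all 746 miRNAs were called. Those not called were miR-96-5p (1.93), miR-200a-3p (-0.12), miR-200b-3p (-0.17) and miR-429-3p (-0.31), so the members did not all go the same way. In the Pkd1 model at P7 2 of the 8 were called higher, miR-183-5p (1.28, SE 0.20, adjusted p = 0.0039 by edgeR) and miR-182-5p (1.06, SE 0.22, adjusted p = 0.0482 by edgeR), where 0.425% of all 706 were called. That count was 1 without any 1 of the 6 libraries and 0 with scaling by library totals. miR-200c-3p, the miRNA most like miR-31-3p, measured 198, 228 and 264 CPM in Pkd2 KO kidneys at P7 and 128, 142 and 125 CPM in WT kidneys. These did not overlap, and every KO library lay above every WT library for 14.3% of the 746 miRNAs in this comparison. Of the 4 tubule miRNAs, 3 were called lower in the Pkd2 model at P7, miR-192-5p (-1.13), miR-194-5p (-0.95) and miR-204-5p (-0.92), and 0 of 4 in the Pkd1 model. The Pkd2 counts of 4 and 3 fell to 0 without KO replicate 3, without WT replicate 2 or without WT replicate 3. With scaling by library totals the 4 became 1 and the 3 became 0. The 4 also became 1 without WT replicate 1, and the 3 became 1 with only the compared libraries. The summed level of the 4 tubule miRNAs was 40855 to 79961 CPM in the Pkd2 KO libraries at P7 and 76855 to 84852 CPM in the WT libraries. Most of this sum was miR-30a-5p, which was not called (-0.25). The summed level of the 8 epithelial miRNAs was 13816 to 21721 CPM in the KO and 10686 to 11799 CPM in the WT libraries. In each of these libraries miR-182-5p was the largest member. It measured 6770, 13935 and 9227 CPM after deletion, against 4595, 3744 and 3674 CPM in the controls. The higher sum therefore says little about the other members. In whole kidney a change in the number of cells of a type and a change in the RNA of each cell cannot be told apart, and the part of these levels in the miR-31 values was not tested.

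Markers of other cells were set beside the Pkd2 kidneys at P7 as well, where 12.6% of all 746 miRNAs were called. Each marker had reads in both genotypes, and 3 were at 0 in 1 library, the muscle miRNA miR-206-3p and the liver miRNA miR-122-3p in WT replicate 1 and the neural miRNA miR-124-3p in KO replicate 2. Among 4 erythroid miRNAs, 1 was called higher, miR-144-5p (1.13), and their summed level was 3511 to 5655 CPM in KO and 2243 to 2722 CPM in WT libraries. That call was lost without KO replicate 3 or without any 1 of the WT libraries, and 3 of the 4 were called without KO replicate 2. Of 4 leukocyte miRNAs, 0 were called, with sums of 369 to 516 CPM in KO and 315 to 440 CPM in WT libraries. For 5 muscle miRNAs, of which 0 were called, the sums were 26.8 to 107 CPM in KO and 18.7 to 19.6 CPM in WT libraries, and 2 were called without KO replicate 2. The 4 miRNAs of endothelium and smooth muscle, the 3 neural and the 2 liver miRNAs gave 0 calls, and their sums overlapped between KO and WT libraries. Without KO replicate 2, 1 neural miRNA was called higher, and without KO replicate 1, 1 miRNA of endothelium and smooth muscle was called lower. DESeq2 called 2 muscle and 3 erythroid miRNAs higher and 2 miRNAs of endothelium and smooth muscle lower. Without a filter on low counts 2 muscle and 2 erythroid miRNAs were called higher, and with only the compared libraries 2 muscle miRNAs were. The erythroid and muscle sums moved with genotype as miR-31 did, and their part in its values was not tested.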

How the data were processed

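The authors extracted total RNA from whole kidneys with Trizol and sequenced small RNA libraries on an Illumina instrument. Per the labels and the study's methods, reads longer than 17 bases were matched to known mature miRNAs of miRBase release 21, and the submitters' processing notes name CASAVA 1.8.2, HTSeq and mm10. The deposited table holds raw counts per mature miRNA for 36 libraries, with no normalization.

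A miRNA was kept if 3 or more libraries of a model held 10 or more counts of it (706 in Pkd1, 746 in Pkd2) and fitted with edgeR 4.0.16 (quasi-likelihood test, TMM, 6 groups, Benjamini-Hochberg over all miRNAs, threshold 0.05). Levels are CPM with TMM over all 36 libraries, and log2 CPM used a prior count of 2. Arm ratios were tested by exact permutation (numpy 2.4.6), and the Wilson intervals came from scipy 1.17.1. DESeq2 1.42.0, other scalings, no filter, a replicate block and leaving out libraries were alternatives. The fit was tested on simulated data. The named miRNAs were both arms, for each arm the 5 highest and 2 lowest by likeness and the 5 highest within groups, and listed markers that moved with miR-31. The members, lists and tests were chosen with earlier results of these data known.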

Additional observations from a re-analysis of the deposited data

How the results depend on the processing

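Over the 33 values of miR-31 recomputed under alternatives, 483 of 523 alternative values kept their direction and side of the threshold, or for untested Pkd2 values moved by less than the spread between libraries. Library totals alone shifted the median miRNA by up to -1.26 on the log2 scale and turned 5 differences of tested contrasts that were not called: miR-31-5p in the Pkd1 model KO minus WT at P1 (0.39), WT P3 minus P1 (0.060) and WT P7 minus P3 (-0.69), miR-31-3p in the Pkd1 KO effect at P7 minus P1 (-0.71) and miR-31-5p in the Pkd2 model at P3 (0.064). They also moved Pkd2 WT values, for miR-31-5p to -0.35 (P3 minus P1), -1.34 (P7 minus P1) and -0.996 (P7 minus P3), and for miR-31-3p to -0.84 (P7 minus P1). A fit of all 36 libraries gave -0.021 for miR-31-3p in the Pkd1 P7 minus P1 effect. The share in percent gave -0.076 percentage points between the lines. For miR-31-3p in Pkd1 WT kidneys, P7 minus P3, the call was lost with library totals (0.34), without a filter (1.42, adjusted p = 0.0630) and with only the compared libraries (1.44, adjusted p = 0.106). DESeq2 kept it (1.46, adjusted p = 0.00893). The causes were not tested.

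Leaving out single libraries gave 0.84 to 1.85 for that contrast and, for other miR-31-3p contrasts of the Pkd1 model, -0.27 to 0.64 (KO effect at P7 minus P1) and -0.092 to 0.82 (WT P7 minus P1). For miR-31-5p it gave -0.47 to 0.11 (Pkd1 KO minus WT at P1), -0.88 to 0.034 (Pkd1 WT P7 minus P1), -0.15 to 0.73 (Pkd1 WT P7 minus P3) and -0.24 to 0.17 (Pkd2 at P3). It gave 1.63 to 2.28 for the Pkd2 KO effect at P7 minus P1, lowest without KO replicate 3 at P7. For Pkd1 KO minus WT it gave 0.54 to 1.16 at P3 and 0.40 to 1.24 at P7 for miR-31-5p, and 0.28 to 0.69 at P1, 0.35 to 1.09 at P3 and 0.20 to 1.03 at P7 for miR-31-3p. The log2 ratio of the arms ranged from 0.29 to 0.50 between P7 and P1 and from -0.038 to 0.13 between the lines.

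Deviations of same-numbered WT and KO libraries from their group means had r from -0.48 to 0.51 (above 0.1 in 7 of 18 pairs, median -0.028). No chance level was computed, and the labels do not say whether the numbers pair libraries, so no pairing was assumed. With the replicate number as a block, miR-31-3p in Pkd1 WT kidneys at P7 minus P3 was 1.42 (adjusted p = 0.0555), and no other miR-31 call changed. Numbers of miRNAs called varied more: in the Pkd2 model at P7 94 became 7 with library totals, 54 in the fit of all 36 libraries, 157 with DESeq2 and 4 to 142 without single libraries. In Pkd1 WT P7 minus P3, 102 became 53 without a filter and 276 with library totals. Over the alternatives other than left-out libraries, Pkd1 KO minus WT gave 0 to 11 calls at P1, 0 to 9 at P3, 0 to 17 at P7 and 0 to 7 over ages, and Pkd1 WT gave 8 to 178 for P3 minus P1 and 53 to 217 for P7 minus P1. The KO effect at P7 against P1 gave 0 to 5 in Pkd1 and 0 to 33 in Pkd2, and Pkd2 WT gave 0 to 17 for P3 minus P1, 165 to 247 for P7 minus P1 and 14 to 76 for P7 minus P3. Depth limits miR-31-3p most, with 25 reads in its lowest library.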
